A study of Mus musculus with 11 samples.

Results

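The ABC (ATP-binding cassette) transporter family was followed across 6 sorted populations of mouse blood-forming and early T lineage cells. Its members were all genes with a probe set that carries a single gene symbol and whose symbol begins with Abc, a subfamily letter from a to g and a number; a gene with several such probe sets was represented by its brightest one on average. This gave 48 genes of 19938 measured. There were 16 genes of subfamily ABCA, 9 of ABCB, 10 of ABCC, 3 of ABCD, 1 of ABCE, 3 of ABCF and 6 of ABCG. All 48 matched a gene of the RefSeq table by Entrez ID.

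Cells came from C57BL/6J mice, a common inbred strain, with no genetic change or treatment named in the labels, and 1 Affymetrix array was run per sample. From bone marrow came hematopoietic stem cells (HSC, 2 arrays), lymphoid-primed multipotent progenitors (LMPP, 2 arrays) and common lymphoid progenitors (CLP, 2 arrays). The thymus gave 2 arrays of early thymic precursors (ETP), 1 of the double negative 2 stage (DN2) and 2 of the next stage, double negative 3 (DN3). The labels name no age, sex, sort gate or pooling, and nothing says that replicates came from separate animals, so p-values measure the spread between these samples, which may be technical.

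ABC proteins bind and hydrolyse ATP in a conserved nucleotide-binding domain. Most members use that energy to move lipids, drugs, peptides, porphyrins or conjugated metabolites across membranes, whereas the ABCE and ABCF proteins have no membrane domain and act in translation and ribosome recycling. In blood stem cells the family is best known for dye efflux: Abcg2 pumps out a Hoechst DNA dye and so gives the "side population" by which stem cells can be enriched, and the P-glycoproteins pump out rhodamine dyes.

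Values are log2 intensities of the authors' RMA processing, so a difference of 1 is a doubling. The median over all probe sets lay between 6.01 and 6.12 on the 11 arrays. Precision is limited by how few arrays each population has. Some replicates are exact ties, such as 6.14496 for Abca1 on both LMPP arrays and 10.3878 for Abce1 on both HSC arrays. Such pairs add nothing to the estimated spread of their gene. Values also repeat across populations: Abca12 had 4.61802 on replicate 2 of HSC, CLP and ETP, on the DN2 array and on DN3 replicate 1. Repeats of this kind can narrow the span of a gene's population means. Why values tie was not tested. Intensities of different genes are not set against each other because probes differ in brightness, and no detection calls were used, so a fold whose lower value lies near background understates the ratio of transcripts. Among the markers of the sorted populations, Il2ra averaged 11.4 on the DN2 array and 11.27 in DN3, against 7.32 in ETP and between 4.26 and 4.40 in the 3 marrow populations. Ebf1, a B lineage factor, averaged 9.27 in CLP and between 4.33 and 5.08 in the other 5 populations. Slamf1, Meis1 and Procr, listed for HSC, averaged 7.54, 10.09 and 6.12 in HSC and at most 5.41, 9.27 and 5.75 elsewhere. Il7r, listed for CLP, averaged 10.71 in CLP and at most 9.77 elsewhere. Thy1, Bcl11b and Cd3e, listed for DN2 and DN3, were highest in DN3 and next highest on the DN2 array. Other markers did not single out their population: Rag1, listed for CLP, averaged 10.98 in CLP and 11.54 in DN3, and Ly6d, also listed for CLP, 10.66 in CLP and 10.62 in DN3. Hlf, listed for HSC, averaged 8.95 in LMPP and 8.62 in HSC, and Ptcra, listed for DN2 and DN3, was at 6.22 on the DN2 array, against 6.30 in ETP, and at 7.88 in DN3. Flt3, listed for LMPP, averaged 10.61 in LMPP and 10.58 in CLP, and Cd34, also listed for LMPP, 11.16 in LMPP and 11.04 in ETP. Dntt and Satb1, listed for LMPP too, were higher in CLP (12.5 and 10.96) than in LMPP (11.99 and 10.87). No marker listed for ETP was highest there. Kit averaged 9.37 in ETP and 9.47 in HSC, and Cd44 8.37 in ETP and 8.51 in LMPP. Hes1 averaged 8.23 in ETP and 8.40 in DN3, and Notch1 7.56 in ETP and 8.33 in DN3. For thymic samples, bone marrow appears in the free-text description but thymus in the tissue field, which was followed.

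The upstream sequence of the genes on which the results turn is shown because 3 of them, Abcb1a, Abcb1b and Abcb4, lie next to each other on chromosome 5 in that order, and because Abcg2 has several annotated starts. Each run is the 250 bases before a RefSeq start (build GRCm38.p6), 5′ to 3′ on the strand of the gene. Capitals mark matches on either strand to 6 motifs. The letters searched were GGGCGG for the GC box, CCAAT for the box of that name, TATAAA for the TATA box, AGATAA for the GATA motif, TGTGGT for the RUNX motif and CACGTG for the E box.
Abcg2 start 1, chr6:58584283-58584532, plus strand: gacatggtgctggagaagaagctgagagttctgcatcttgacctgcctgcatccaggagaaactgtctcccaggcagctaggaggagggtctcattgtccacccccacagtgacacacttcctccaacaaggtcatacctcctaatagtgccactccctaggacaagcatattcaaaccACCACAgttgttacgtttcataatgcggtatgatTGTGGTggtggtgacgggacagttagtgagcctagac
Abcg2 start 2, chr6:58596422-58596671, plus strand: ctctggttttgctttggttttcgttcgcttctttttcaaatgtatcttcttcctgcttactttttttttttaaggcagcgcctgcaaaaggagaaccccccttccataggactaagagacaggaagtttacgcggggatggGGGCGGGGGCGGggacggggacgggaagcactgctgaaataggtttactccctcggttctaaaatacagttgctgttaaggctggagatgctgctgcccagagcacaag
Abcg2 start 3, chr6:58640296-58640545, plus strand: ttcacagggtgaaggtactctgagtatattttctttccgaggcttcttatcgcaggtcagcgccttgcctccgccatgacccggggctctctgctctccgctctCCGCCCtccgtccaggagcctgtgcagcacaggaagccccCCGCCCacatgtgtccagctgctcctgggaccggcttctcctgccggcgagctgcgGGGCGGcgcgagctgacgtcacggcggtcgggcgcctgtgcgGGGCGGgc
Abcb1a, chr5:8566841-8567090, plus strand: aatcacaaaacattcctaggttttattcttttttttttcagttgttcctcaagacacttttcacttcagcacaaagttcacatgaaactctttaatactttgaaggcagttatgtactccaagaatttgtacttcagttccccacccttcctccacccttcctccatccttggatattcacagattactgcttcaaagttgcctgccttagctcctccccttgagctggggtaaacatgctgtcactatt
Abcb1b, chr5:8797897-8798146, plus strand: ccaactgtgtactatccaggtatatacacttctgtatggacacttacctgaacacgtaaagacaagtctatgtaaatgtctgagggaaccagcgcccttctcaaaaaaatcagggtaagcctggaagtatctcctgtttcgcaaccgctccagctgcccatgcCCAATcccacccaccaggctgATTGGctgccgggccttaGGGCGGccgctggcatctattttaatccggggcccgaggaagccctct
Abcb4, chr5:8893471-8893720, plus strand: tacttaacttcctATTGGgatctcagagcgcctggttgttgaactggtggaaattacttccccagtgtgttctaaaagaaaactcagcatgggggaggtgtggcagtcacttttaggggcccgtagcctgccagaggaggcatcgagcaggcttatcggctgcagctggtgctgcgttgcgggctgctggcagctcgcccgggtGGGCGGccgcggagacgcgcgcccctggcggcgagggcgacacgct
Abcg3, chr5:104982718-104982967, minus strand: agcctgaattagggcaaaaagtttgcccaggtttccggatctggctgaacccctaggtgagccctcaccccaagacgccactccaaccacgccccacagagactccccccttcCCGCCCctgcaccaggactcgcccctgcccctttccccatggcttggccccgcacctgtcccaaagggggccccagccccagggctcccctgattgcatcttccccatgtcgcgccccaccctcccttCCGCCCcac
Of the 48 members 38 have an entry in that promoter table, and 6 of these have more than 1 start. In Abcg2 the most upstream start had 2 RUNX motifs, the next 2 GC boxes and the most downstream 4 GC boxes. The probe set value does not tell which start was used. Abcb1b held 2 CCAAT boxes and 1 GC box, Abcb4 1 of each, Abcg3 2 GC boxes, and Abcb1a none of the 6 motifs. Over all 32851 promoters of the table, 32.7% held the GC box, 33.8% the CCAAT box, 12.4% the TATA box, 10% the GATA motif, 14% the RUNX motif and 6.0% the E box. The median GC content of these promoters was 52.4%, against which Abcb1a at 40.4% with 0 CpG dinucleotides and Abcb4 at 61.6% with 18 stand to either side. A match describes letters only.

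Across the 6 populations, 8 of the 48 genes differed in limma's moderated F test (Benjamini-Hochberg adjusted p under 0.05 over all 19938 genes), which is 16.7%, beside 12.2% of all genes. The 8 were Abca1, Abca5, Abcb1b, Abcb4, Abcc5, Abce1, Abcg2 and Abcg3. Comparisons of 2 populations added Abcb1a and Abcc1, so 10 genes were called somewhere and 38 nowhere. Most members were flat: 33 of the 38 uncalled genes had population means within 0.5 of each other, and the median span of the population means was 0.31 for the members and 0.34 for all genes. A span of at least 1 was seen in 5 members (10.4%), against 8.2% of all genes. The mean was highest in LMPP for 14 members, in HSC for 12, in CLP and ETP for 6 each and in DN2 and DN3 for 5 each. It was lowest in DN3 for 15 members and in DN2 for 11, and DN2 is a single array. That order of populations was given no test. The same counts were not taken over all genes, so the order is not read as a trait of the family.

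**Figure D1:**
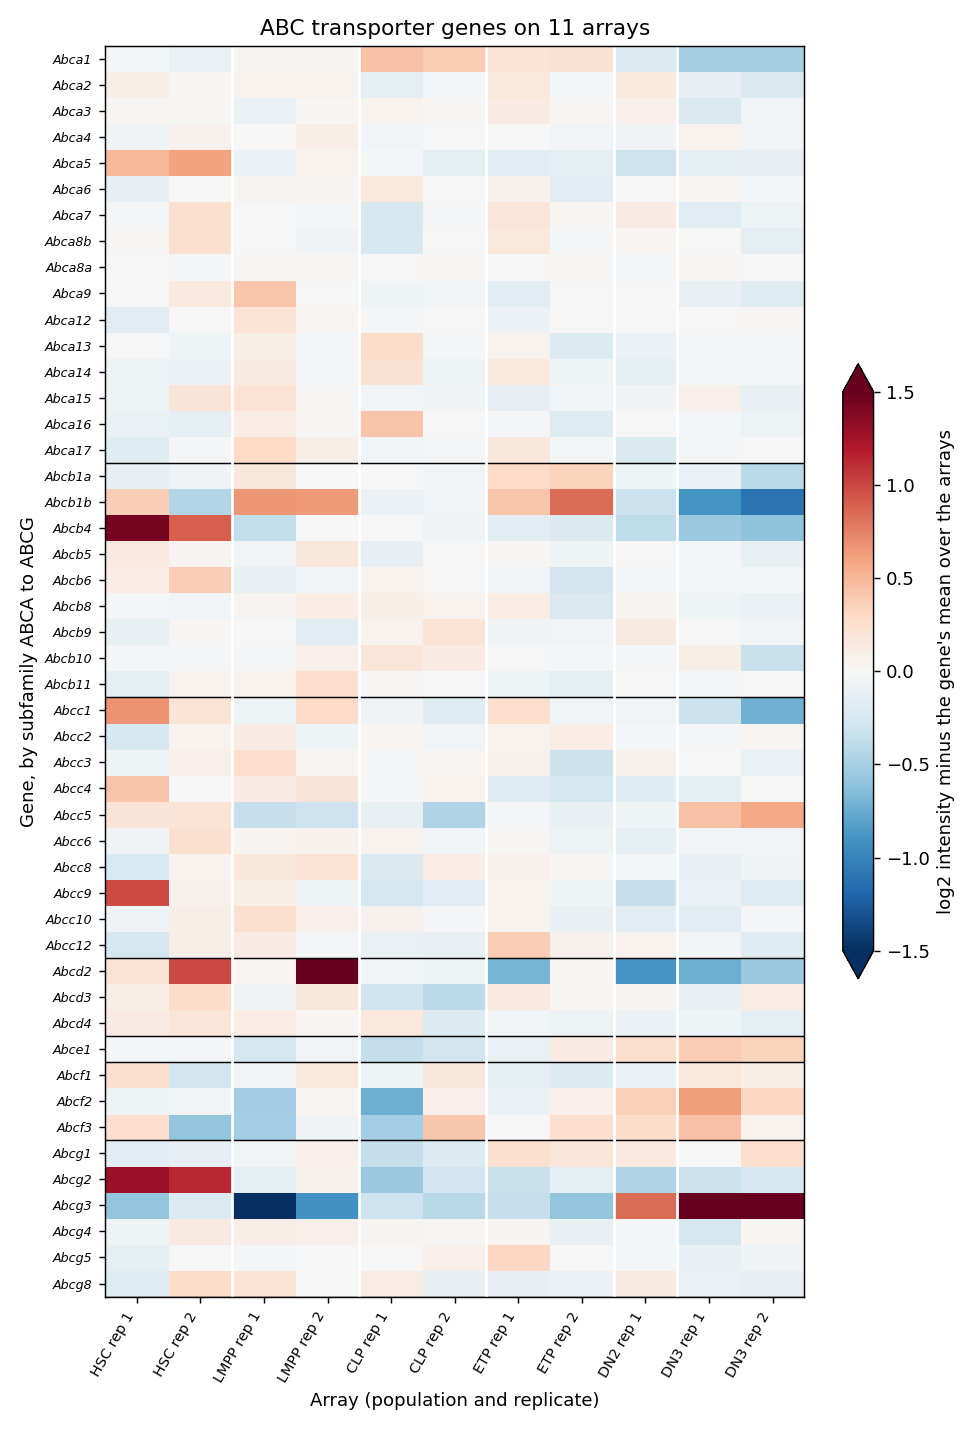
Heat map of the 48 ABC genes (rows, grouped by subfamily with black lines between them) on the 11 arrays (columns). Colour is the log2 intensity minus the gene's own mean over the arrays, with red above and blue below; colours saturate at 1.5, and Abcd2 and Abcg3 go beyond. Most rows are pale; among the strong colours are Abcb4 and Abcg2 in HSC (red), Abcd2 on 1 LMPP array (red), Abcb1b in DN3 (blue), and Abcg3 in LMPP (blue) and in DN3 (red).

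The drug and porphyrin exporter Abcg2 was highest in HSC. It had 9.01 and 8.86 on the HSC arrays, 7.59 and 7.79 in LMPP, 7.16 and 7.43 in CLP, 7.39 and 7.58 in ETP, 7.27 in DN2 and 7.39 and 7.47 in DN3. The HSC arrays lay above all 9 others. The LMPP arrays came next, just above the highest ETP array, and the CLP, ETP, DN2 and DN3 arrays overlapped. Abcg2 fell 2.37-fold in LMPP, averaging 7.69 ± 0.14 in LMPP and 8.93 ± 0.11 in HSC (SD, n = 2 each; log2 difference -1.25, 95% interval -1.55 to -0.94, limma adjusted p = 0.000702). After that step no further change was called: the difference was -0.39 for CLP against LMPP (interval -0.69 to -0.09, limma adjusted p = 0.374) and -0.05 for DN3 against ETP (interval -0.36 to 0.25, limma adjusted p = 0.956).

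Abcb4 had the same kind of profile. This gene encodes the phosphatidylcholine translocator best known from the bile canaliculi of the liver. Its values were 7.71 and 7.18 in HSC, 5.91 and 6.27 in LMPP, 6.29 and 6.22 in CLP, 6.11 and 6.05 in ETP, 5.90 in DN2 and 5.71 and 5.67 in DN3. Both HSC arrays stood above all others. Abcb4 averaged 6.09 ± 0.26 in LMPP and 7.45 ± 0.38 in HSC (SD, n = 2 each), a 2.56-fold fall (log2 difference -1.36, interval -1.75 to -0.96, limma adjusted p = 0.00215). Abca5, a lysosomal and late endosomal transporter, was the other gene that fell at this step, by 0.57 on the log2 scale (4.84 and 4.98 in LMPP, against 5.43 and 5.53 in HSC; limma adjusted p = 0.0219). Abca5 averaged 4.93 over the 11 arrays, below the lower quartile of all genes, 5.09. The call of Abca5 did not hold without any 1 of the 4 arrays compared, at adjusted p between 0.0546 and 0.144, and its F test call was lost without HSC replicate 2 (0.0511).

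In all, 3 of the 48 members fell in LMPP against HSC (6.25%, beside 2.94% of all genes called in either direction and 1.71% called lower). In limma 0 rose, beside 1.23% of all genes called higher; 2 members were higher at an unadjusted p under 0.05 (4.17%, beside 6.25% of all genes). The median difference of the members was 0.05 and that of all genes 0.03. Markers of other lineages also differed at this step. Of 3 measured megakaryocyte markers all 3 fell in LMPP, with a list mean of 5.95 to 6.14 in LMPP and 8.37 to 8.48 in HSC. Of 3 measured erythroid markers 1, Car1, fell (list mean 5.58 to 5.88 in LMPP, 7.81 to 7.87 in HSC), and of 5 neutrophil and mast cell markers 4 fell (list mean 6.96 to 7.07 in LMPP, 9.18 to 9.44 in HSC). Of 3 natural killer markers 1, Klrd1, rose (list mean 4.56 to 4.63 in LMPP, 3.96 to 4.08 in HSC). No macrophage, B cell, later T cell or stromal and endothelial marker was called in limma at this step. Their part in the ABC differences was not tested. In samples of many cells, fewer cells with a transcript and less transcript per cell cannot be told apart.

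The P-glycoprotein gene Abcb1b, which lies between Abcb1a and Abcb4, had another profile. P-glycoproteins expel many lipophilic drugs, and rodents have a pair of genes for the single human one. Abcb1b had 7.56 and 6.75 in HSC, 7.85 and 7.83 in LMPP, 7.10 and 7.15 in CLP, 7.61 and 8.03 in ETP, 6.87 in DN2 and 6.29 and 6.08 in DN3. LMPP and ETP arrays overlapped at the top, and DN3 arrays were below all others. In DN3 it averaged 6.18 ± 0.15, against 7.82 ± 0.29 in ETP (SD, n = 2 each; 3.1-fold lower, log2 difference -1.63, interval -2.14 to -1.13, limma adjusted p = 0.0012). Against HSC the fall in DN3 was 0.97 on the log2 scale (limma adjusted p = 0.0221), a call lost without HSC replicate 1 (adjusted p = 0.103), DN3 replicate 1 (0.0726) or DN3 replicate 2 (0.178).

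For Abcb1b the step that lowered Abcb4 gave a positive difference, 0.69 for LMPP against HSC (interval 0.18 to 1.19), which was not called (limma adjusted p = 0.189) and was called without HSC replicate 1 (limma adjusted p = 0.0181). The 2 HSC arrays differed by more than LMPP and HSC did on average. Its paralog Abcb1a moved little. Abcb1a had 6.22 and 6.29 in HSC, 6.52 and 6.35 in LMPP, 6.35 and 6.31 in CLP, 6.64 and 6.68 in ETP, 6.29 in DN2 and 6.26 and 5.94 in DN3. It was called only in DN3 against ETP (1.47-fold lower, limma adjusted p = 0.0273), and not without ETP replicate 1 (adjusted p = 0.121), ETP replicate 2 (0.142) or DN3 replicate 2 (0.289). Abcb1a and Abcb1b are close copies, and how far probes of one also bind the other is not known here.

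**Figure D2:**
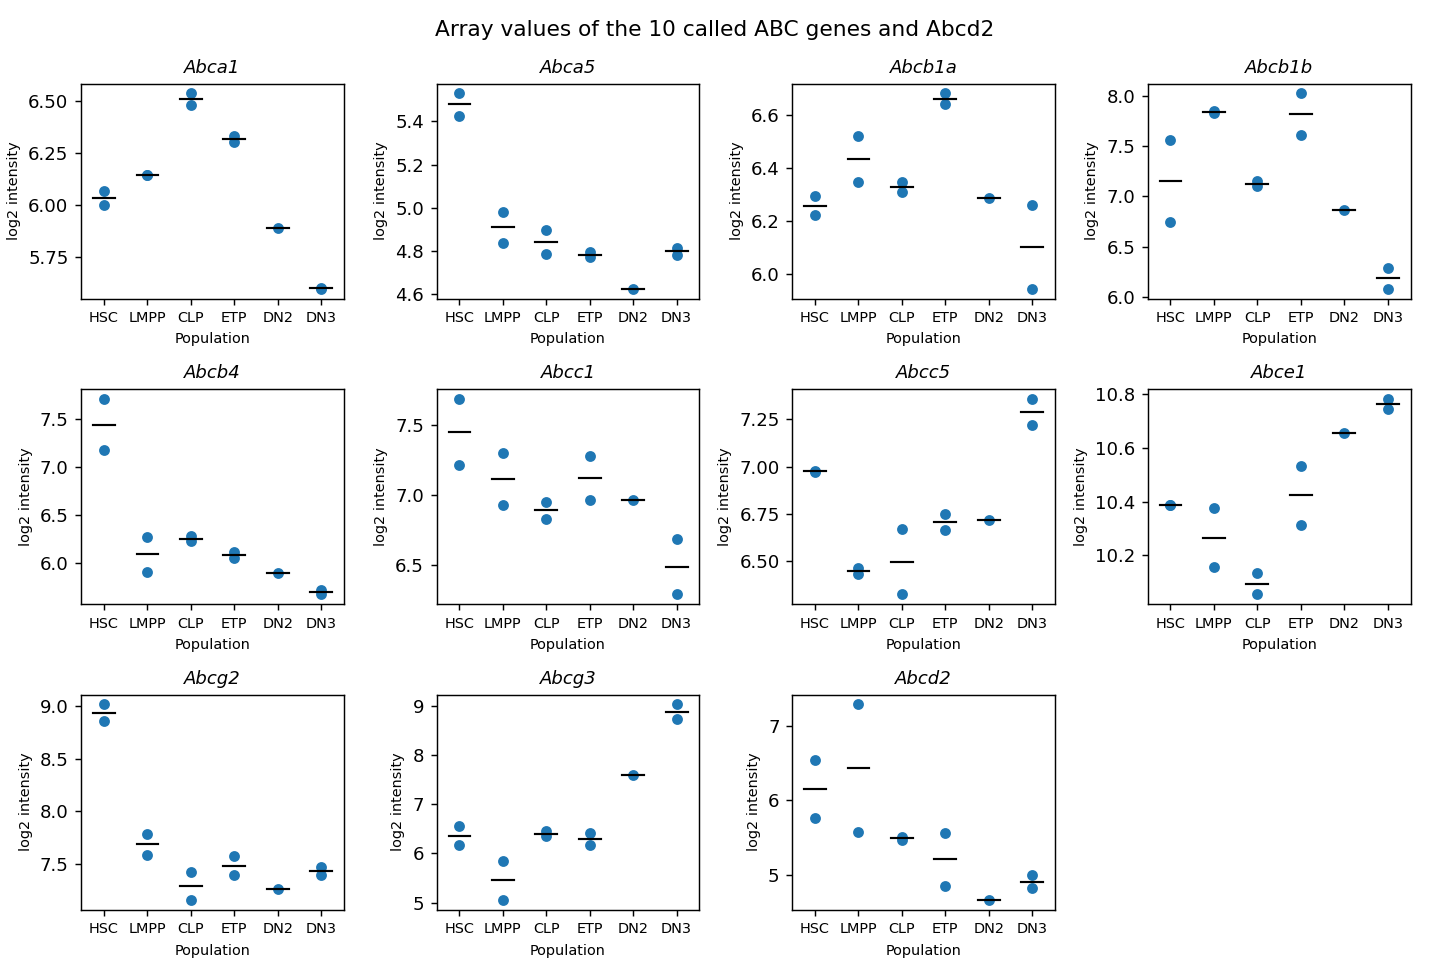
Log2 intensity (vertical axes, a separate scale in each panel) by population from HSC to DN3 for the 10 called ABC genes and Abcd2. Points are arrays and bars are means; DN2 has 1 array. Abcg2, Abcb4 and Abca5 are highest on both HSC arrays, Abcg3 on both DN3 arrays, and Abcd2 has LMPP arrays at 5.58 and 7.29.

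Abcg3 had the widest span of the family, 3.42 between population means. It is a rodent relative of Abcg2. Abcg3 had 6.17 and 6.55 in HSC, 5.05 and 5.85 in LMPP, 6.45 and 6.34 in CLP, 6.41 and 6.17 in ETP, 7.59 in DN2 and 8.72 and 9.03 in DN3. The DN3 arrays were above the DN2 array, which was above all 8 others. Abcg3 rose 6.0-fold in DN3, averaging 8.87 ± 0.22 in DN3 and 6.29 ± 0.17 in ETP (SD, n = 2 each; log2 difference 2.59, interval 2.06 to 3.11, limma adjusted p = 5.61e-05). Against HSC it was 5.72-fold higher in DN3 (limma adjusted p = 4.68e-05).

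Neither step into or out of the single DN2 array was called for Abcg3. DN2 against ETP gave 1.30 (interval 0.66 to 1.95, limma adjusted p = 0.0846) and DN3 against DN2 gave 1.28 (interval 0.64 to 1.92, limma adjusted p = 0.0617). Without LMPP replicate 1 or LMPP replicate 2 both were called, at adjusted p = 0.021 and 0.0139 in either case. DN3 against DN2 was also called with the dim genes left out (0.0495) and with an intensity trend and robust prior (0.046). LMPP against HSC gave -0.91 (limma adjusted p = 0.081), called without LMPP replicate 2 (0.0163). The 2 LMPP arrays differed by 0.80 for this gene, which enters the shared estimate of its spread. In the RefSeq table Abcg3 neighbours Gbp8, a member of the interferon-induced guanylate-binding protein cluster.

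DN3 against ETP changed 5 of the 48 members (10.4%, beside 6.57% of all genes called). Abcg3 and Abcc5 rose (4.17%, beside 2.68% called higher). Abca1, Abcb1a and Abcb1b fell (6.25%, beside 3.89% called lower). Abcc5, an exporter of cyclic nucleotides, had 7.22 and 7.36 in DN3, against 6.75 and 6.67 in ETP, and did not overlap (1.49-fold higher, limma adjusted p = 0.0245); the call was lost without any 1 of these 4 arrays, at adjusted p between 0.0835 and 0.219. Over the path Abcc5 had 6.97 and 6.98 in HSC, 6.43 and 6.46 in LMPP, 6.67 and 6.32 in CLP and 6.72 in DN2, so HSC and DN3 were its highest populations. Its F test call was lost without DN3 replicate 2 (adjusted p = 0.081). LMPP against HSC gave -0.53 for Abcc5 (limma adjusted p = 0.0667) and was called when quantiles were normalized once more (0.0487) or without either CLP array (0.0382).

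The cholesterol and phospholipid exporter Abca1, which loads apolipoprotein A-I, peaked in CLP. It had 6.07 and 6.00 in HSC, 6.14 and 6.14 in LMPP, 6.54 and 6.48 in CLP, 6.30 and 6.33 in ETP, 5.89 in DN2 and 5.60 and 5.60 in DN3. The DN3 arrays were the lowest and the CLP arrays the highest, with no overlap between replicated populations. Abca1 fell 1.64-fold in DN3 against ETP (log2 difference -0.72, interval -0.95 to -0.49, limma adjusted p = 0.00148). The difference of CLP from LMPP was 0.37 (interval 0.14 to 0.60) and was not called (limma adjusted p = 0.202). Abcg1, which passes cholesterol to high-density lipoprotein, was flat by comparison, with population means between 7.01 in CLP and 7.49 in ETP and no call (F test adjusted p = 0.126).

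Between the ends of the path, 7 members were called in DN3 against HSC (14.6%, beside 9.6% of all genes). Abca1, Abca5, Abcb1b, Abcb4, Abcc1 and Abcg2 fell (12.5%, beside 5.43% called lower) and Abcg3 rose (2.08%, beside 4.17% called higher). This comparison shares the HSC arrays with LMPP against HSC and the DN3 arrays with DN3 against ETP. Abcg2 was 2.83-fold lower in DN3 (limma adjusted p = 3.64e-05), Abcb4 3.37-fold (limma adjusted p = 7.82e-05) and Abca5 1.6-fold (limma adjusted p = 0.00253). Abcc1, an exporter of glutathione conjugates and leukotriene C4, was 1.95-fold lower (6.68 and 6.29 in DN3, against 7.68 and 7.21 in HSC; limma adjusted p = 0.0111), and not called without HSC replicate 1 (adjusted p = 0.0833) or DN3 replicate 2 (0.134). Abca1 was 1.35-fold lower (limma adjusted p = 0.0229) and lost its call without HSC replicate 1 (adjusted p = 0.0852), DN3 replicate 1 (0.127) or DN3 replicate 2 (0.148). Without HSC replicate 1, or without DN3 replicate 2, 4 members were called in place of 7.

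In DN3 against HSC all 3 measured megakaryocyte markers fell (list mean 5.60 to 5.72 in DN3, 8.37 to 8.48 in HSC), as did 2 of 3 erythroid and all 5 neutrophil and mast cell markers. Cd68, of the macrophage list, also fell (6.44 in DN3, 7.21 in HSC), while Cd8b1, of the later T cell list (6.38 in DN3, 5.29 in HSC), and Epcam, of the stromal and endothelial list (7.21 in DN3, 5.19 in HSC), rose. All 5 neutrophil and mast cell markers fell in DN3 against ETP too, with a list mean of 6.00 to 6.05 in DN3 and 8.15 to 8.38 in ETP. Of 6 macrophage markers 1, Csf1r, fell, to a mean of 5.39 in DN3, against 6.44 in ETP; the list mean was 5.32 on both DN3 arrays and 5.51 to 5.62 in ETP. Of 3 later T cell markers 1, Cd8b1, rose, to a mean of 6.38 in DN3, against 5.44 in ETP; the list mean was 5.71 to 5.87 in DN3 and 5.50 to 5.63 in ETP. Of 3 erythroid markers 1, Car1, fell (list mean 5.40 to 5.53 in DN3, 5.94 to 6.27 in ETP). Of 3 natural killer markers 1, Klrd1, fell, to a mean of 4.31 in DN3, against 7.54 in ETP; the list mean was 3.82 to 4.02 in DN3 and 5.01 to 5.15 in ETP. Of 7 stromal and endothelial markers Pdgfrb fell (6.51 in DN3, 7.62 in ETP) and Epcam rose (7.21 in DN3, 4.99 in ETP), with a list mean of 6.54 to 6.58 in DN3 and 6.37 to 6.46 in ETP. No megakaryocyte or B cell marker was called in limma in DN3 against ETP. Their part in the differences was not tested.

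**Figure D3:**
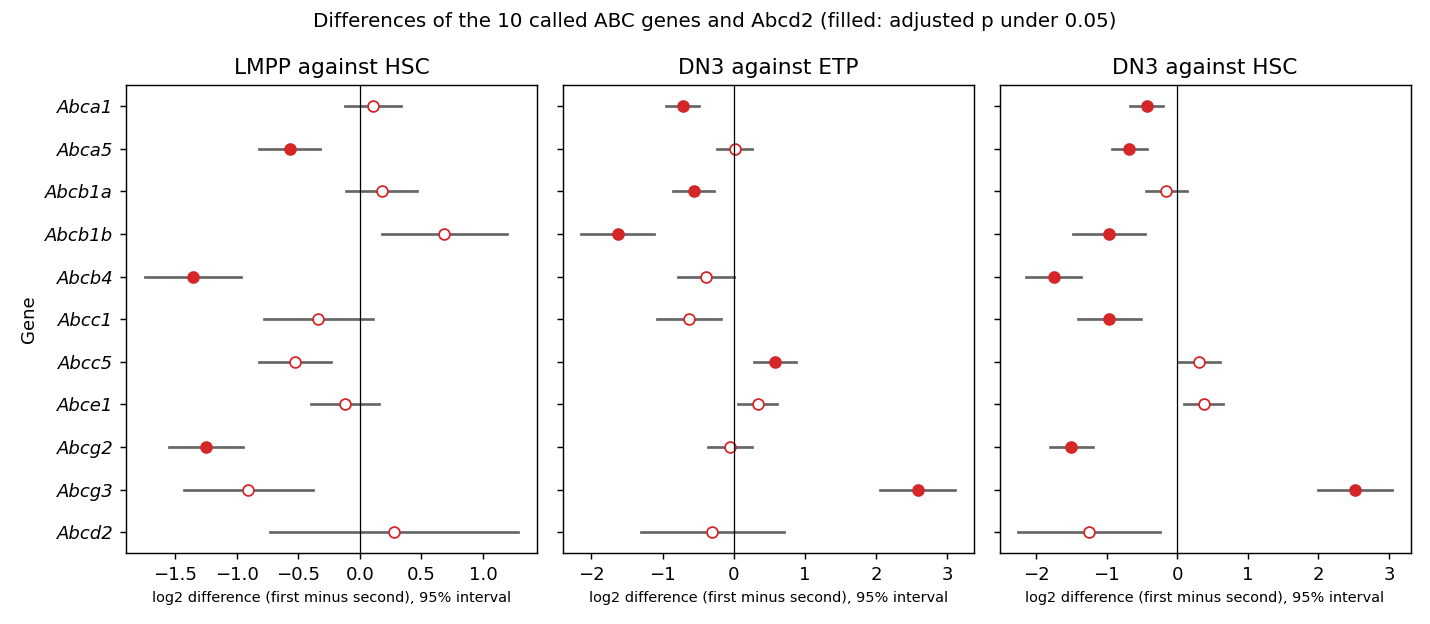
Log2 differences (horizontal axes, first-named population minus the second) with 95% intervals from limma for the 10 called ABC genes and Abcd2 in 3 comparisons. Filled points passed adjusted p under 0.05. In LMPP against HSC the filled points are Abca5, Abcb4 and Abcg2, all below 0; in the DN3 comparisons Abcg3 stands alone near 2.5.

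The marrow step CLP against LMPP and the marrow-to-thymus comparison ETP against LMPP called 0 of 48 members, beside 1.14% and 2.31% of all genes. At an unadjusted p under 0.05 limma gave 6 members in CLP against LMPP (12.5%, beside 8.5% of all genes) and 3 in ETP against LMPP (6.25%, beside 13.4%). In CLP against LMPP the 6 were Abca1 and Abcg3, higher in CLP, and Abcb1b, Abcd3, Abcg1 and Abcg2, lower. The lower ones include Abcb1b at -0.71 (interval -1.22 to -0.20, limma adjusted p = 0.305). Over all members 34 of 48 had a lower mean in CLP, with a median difference of -0.10, against -0.02 for all genes. The share of all genes with a lower mean in CLP was not taken. Without LMPP replicate 2, Abcg3 was called higher in CLP than in LMPP (adjusted p = 0.0247) and higher in ETP than in LMPP (0.0254). The thymic steps DN2 against ETP and DN3 against DN2 likewise called 0, beside 0.998% and 1.8% of all genes, with 4 members (beside 7.19% of all genes) and 5 members (beside 8.17%) at an unadjusted p under 0.05 in limma; both rest on the 1 DN2 array, taken to have the spread of the replicated populations.

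The peroxisomal members, which carry fatty acyl-CoA into the organelle, gave no call. Abcd2, a transporter of very long chain acyl-CoA that was singled out after its values were seen, had 5.76 and 6.55 in HSC, 5.58 and 7.29 in LMPP, 5.51 and 5.48 in CLP, 4.85 and 5.57 in ETP, 4.67 in DN2 and 4.82 and 4.99 in DN3. Its population means spanned 1.77, more than those of Abcg2, but the LMPP arrays differed by 1.71, and the F test did not pass (adjusted p = 0.145). ETP against LMPP gave -1.22 (interval -2.23 to -0.22, limma adjusted p = 0.256). Without LMPP replicate 1 the F test (adjusted p = 0.00639) and ETP against LMPP (0.018) passed, and DN3 against HSC passed without either LMPP array (0.0181). Abcd3, which imports branched-chain and bile acid intermediates, spanned 0.53 and Abcd4, a lysosomal protein of vitamin B12 export, 0.26.

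Abce1, the ribosome recycling factor, was the member of the translation group that passed the F test (adjusted p = 0.0359). It had 10.39 and 10.39 in HSC, 10.16 and 10.37 in LMPP, 10.05 and 10.13 in CLP, 10.31 and 10.53 in ETP, 10.66 in DN2 and 10.78 and 10.74 in DN3. The DN3 and DN2 arrays were above all marrow arrays. No comparison of 2 populations passed for Abce1; DN3 against HSC gave 0.37 (interval 0.10 to 0.65, limma adjusted p = 0.0976). Its F test call was lost when quantiles were normalized once more (adjusted p = 0.0574) and without LMPP replicate 1, either CLP array or either DN3 array, at adjusted p between 0.0508 and 0.171. The ABCF members, which act on the ribosome and in the control of translation, were not called. Abcf1 ranged from 8.11 to 8.63 over the HSC arrays alone, which covers all its population means. Abcf2, chosen after its values were seen, averaged 8.57 ± 0.22 in DN3 and 8.09 ± 0.12 in ETP (SD, n = 2 each; difference 0.48, interval -0.07 to 1.03, limma adjusted p = 0.421); its F test passed without CLP replicate 2 (adjusted p = 0.0483).

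The other members of ABCA, which move lipids, were flat: the 14 uncalled ones spanned between 0.04 (Abca8a) and 0.41 (Abca17). They include Abca2, Abca3, the surfactant lipid transporter of the lung, Abca4 of the retina and Abca12 of the skin. Abca2 averaged 6.57 over the 11 arrays and Abca3 5.89. Abca4 at 5.03, Abca12 at 4.61 and Abca8a at 3.75 lay below the lower quartile of all genes, 5.09. At such levels a narrow span does not tell steady transcript from background. Among the 6 uncalled ABCB genes the span was 0.16 to 0.40; Abcb10, an inner mitochondrial membrane protein that aids haem synthesis, had population means between 5.85 in DN3 and 6.13 in CLP. Among the 8 uncalled ABCC genes it was 0.17 to 0.87. Abcc4, an exporter of cyclic nucleotides and prostaglandins, had means between 6.42 in ETP and 6.87 in HSC (F test adjusted p = 0.295) and was called lower in DN3 than in HSC without HSC replicate 2 (adjusted p = 0.0497). Abcc9, the regulatory subunit of an ATP-sensitive potassium channel, had 6.54 and 5.62 in HSC and between 5.21 and 5.64 on the other 9 arrays; its F test was at adjusted p = 0.253, and without HSC replicate 2 it passed (0.00319), as did LMPP against HSC (0.00575) and DN3 against HSC (0.000792), both lower. Abcc9 was singled out after its values were seen. The remaining ABCG genes, Abcg1, Abcg4 and the sterol transporter pair Abcg5 and Abcg8, spanned 0.20 to 0.48.

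Genes of the same superfamily under other symbols were outside the rule. Tap1 and Tap2, which pump peptides to MHC class I molecules, did not pass the F test (adjusted p = 0.202 and 0.547). Tap1 lay between 6.66 on a DN3 array and 7.63 on an LMPP array. Cftr, the chloride channel of epithelia, lay between 3.28 and 3.81 on all arrays.

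Lists of genes from pathways related to some ABC members were also described. The list of glutathione and conjugation genes was taken because some ABCC proteins, such as Abcc1, export glutathione conjugates. It also holds Nqo1, Nfe2l2 and Keap1. Of its 14 genes 8 were called in the F test, beside 12.2% of all genes. In DN3 against HSC 2 rose and 6 fell, beside 9.6% of all genes called, with a median difference of -0.23 over the list and 0.00 over all genes. Gstm5, a glutathione transferase, averaged 4.24 in DN3 and 9.83 in HSC (48.1-fold lower, limma adjusted p = 2.86e-07), and Gsr, the reductase that regenerates glutathione, 9.08 in DN3 and 7.74 in HSC (2.53-fold higher, limma adjusted p = 0.00015). Of 10 measured sterol and lipid efflux genes 2, Apoe and Hmgcs1, passed the F test, beside 12.2% of all genes. Apoe, an apolipoprotein, averaged 7.95 in LMPP and 10.32 in HSC (5.17-fold lower, limma adjusted p = 4.66e-06). Hmgcs1, an enzyme of cholesterol synthesis, averaged 9.27 in DN3 and 8.25 in ETP (2.03-fold higher, limma adjusted p = 0.0204).

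Of 13 measured haem and iron genes 3 passed the F test; the share of all genes that passed it, 12.2%, applies to this list and those that follow. Alas1, the enzyme that starts haem synthesis, averaged 6.59 in LMPP and 7.54 in HSC (1.93-fold lower, limma adjusted p = 0.00135), and Tfrc, the transferrin receptor, 10.61 in CLP and 9.11 in LMPP (2.82-fold higher, limma adjusted p = 6.75e-05); Alad was called in DN3 against HSC, 0.44 lower on the log2 scale. Ribosome recycling and translation genes had 2 of 9 called in the F test, Etf1 and Impact, and Etf1, the release factor, was 1.73-fold higher in DN3 than in ETP (limma adjusted p = 0.00492). None of 9 measured peptide loading genes and none of 11 measured peroxisome genes passed the F test of limma, beside 12.2% of all genes, and lists this short say little against that share. At an unadjusted p under 0.05 in the F test limma gave 2 of the 9, Tap1 and Erap1, and 2 of the 11, Pex5 and Pex19. The share of all genes at that unadjusted threshold was not taken, so these counts cannot be called high or low.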

How the data were processed

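Total RNA of sorted cells was extracted with Trizol, labelled with biotin and hybridised to 11 Affymetrix arrays, 1 per sample, per the labels' protocols. The deposited values are log2 intensities made by the authors with RMA, per the submitters' processing notes, which corrects background, normalizes quantiles and summarises probe sets; its version, chip definition and build are not named there. That the scale is log2 was taken from the range of the values.

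Of 35556 probe sets, 21789 had 1 gene symbol in the platform annotation, 1621 several and 12146 none. Only the first kind was used, with the brightest probe set per gene (19938 genes). Of the members only Abcb5 had more than 1. Dim genes were kept.

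One limma 3.58.1 fit in R 4.3.3 held 6 group means over 11 arrays (5 residual degrees of freedom). It gave the F test and 7 two-sided comparisons, each adjusted by Benjamini-Hochberg over 19938 genes; called means adjusted p under 0.05. Intervals are 95%. The fit was tested on simulated data. Genes are given in full if called, or if on a panel of 12 ABC genes; others by range. Members and lists were chosen with earlier results of these data known. Sequences are from RefSeq (GRCm38.p6). Tables were handled with Python 3.11.15 and pandas 2.3.3, figures with matplotlib 3.10.9.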

Additional observations from a re-analysis of the deposited data

How the results depend on the processing

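Alternatives were a filter on dim genes (17 of the 48 members kept), quantile normalization once more, averaging the probe sets of a gene, a robust prior with an intensity trend, the replicate number as a block, adjusted p under 0.01, and leaving out each array; a population left with 1 array was assumed to vary like the others. No result for a single gene turned its sign where it was called in any setting. Of the comparisons of a single gene's result with an alternative, 575 kept their side of the threshold, 34 lost the call and 23 gained one. Called members in DN3 against ETP numbered 3 in place of 5 at adjusted p under 0.01, and in DN3 against HSC 4 in place of 7, by construction of the threshold. DN3 against DN2 gave 1 in place of 0 with the dim filter, where fewer genes were tested, and 1 with the trend and robust prior; the gene was Abcg3.

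Leaving out 1 array gave 6 to 8 called members in the F test, 2 to 4 in LMPP against HSC, 3 to 5 in DN3 against ETP and 4 to 9 in DN3 against HSC, and 0 to 1 in each of CLP against LMPP, ETP against LMPP, DN2 against ETP and DN3 against DN2. The count of 3 in DN3 against ETP came without ETP replicate 1, ETP replicate 2 or DN3 replicate 2. With the replicate block the F test called 8 members, LMPP against HSC 3, DN3 against ETP 5 and DN3 against HSC 8, the added one being Abcd2 (adjusted p = 0.0435); the other 4 comparisons called 0. Differences between replicates correlated at -0.258 to 0.283 between populations, and the numbers were not taken as pairs. Such correlations cannot tell whether samples with the same number share anything beyond it. Abcg2, Abcb4 and Abcg3 in DN3 against HSC, Abcg2 and Abcb4 in LMPP against HSC and Abcg3 and Abcb1b in DN3 against ETP stayed called in every alternative that kept the gene.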
